A study of Mus musculus with 133 samples.

Results

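Adipocyte-rich and adipocyte-poor mammary tumors were compared, which were chosen by the measured Adipoq level as the 31 tumors with the most and the 31 tumors with the least of it in a series of 133 arrays. Adipoq encodes adiponectin, a hormone made by fat cells. A further 61 tumors lay between both groups. The 10 remaining arrays, those whose animal number has the suffix r and those of animals 14094, 14095, 14312 and 14320, were left out. Each tumor kept had 1 array. Titles were either a running number ("numbered") or a name ("named"), and Adipoq was centred within each of these title forms before the tumors were ranked. The rich group held 14 numbered and 17 named tumors, and the poor group held 11 numbered and 20 named tumors.

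All animals were untreated daughters of a cross between Diversity Outbred mothers and MMTV-PyMT fathers, so both groups carried the same transgene. The labels do not give the founder alleles of each animal, and whether these differed between the groups was not tested. The MMTV promoter drives the polyoma middle T antigen mainly in mammary epithelium. Whole tumors were frozen close to the humane endpoint, and their RNA was hybridised to Affymetrix Mouse Gene 1.0 ST arrays. The labels give neither the ages of the animals nor the histology of the tumors. Nothing in the labels measures the amount of fat in a tumor, so rich and poor stand for the level of adipocyte mRNA alone. In bulk RNA, fewer cells of a type and less RNA per cell cannot be told apart. P values measure the spread between animals of 1 cross.

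The mammary gland grows inside a fat pad, and mammary tumors grow into and around that fat. White adipocytes store triglyceride in a single large lipid droplet, whose surface is coated by perilipins, and they take up fatty acids that lipoprotein lipase frees from circulating lipoproteins. They differentiate under the transcription factors PPARγ and C/EBPα, and they secrete hormones such as adiponectin, leptin and, in mice, resistin. Brown and beige adipocytes hold many small droplets and express Ucp1, the mitochondrial uncoupling protein that produces heat.

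The proximal promoters of Adipoq and of 3 of the 12 genes whose level followed it most closely (Cidec, Plin1 and Aqp7) are shown. These 3 are examples that hold a match described below. They are not the 3 closest genes, as Retn and Fabp4 followed Adipoq more closely than Aqp7 did. The sequences are from RefSeq for GRCm38.p6, run 5′ to 3′ on the gene's strand, and cover 250 bases before and 50 bases from a transcription start. Capitals mark matches on either strand to TTGCNNAA, a core of C/EBP sites, or to AGGTCA, the half-site of nuclear receptors, with its extension AGGNNANAGGTCA, a relaxed direct repeat with a spacer of 1 base of the kind PPARγ binds. The extension contains the half-site. Adipoq lies on chr16:23146286-23146585 (plus strand), Cidec on chr6:113434715-113435014 (minus strand), Plin1 on chr7:79732727-79733026 (minus strand) and Aqp7 on chr4:41047913-41048212 (minus strand). Cidec and Aqp7 each have a further start in the table, which is not shown. That of Cidec held no match, and that of Aqp7 held a half-site at -49.
Adipoq: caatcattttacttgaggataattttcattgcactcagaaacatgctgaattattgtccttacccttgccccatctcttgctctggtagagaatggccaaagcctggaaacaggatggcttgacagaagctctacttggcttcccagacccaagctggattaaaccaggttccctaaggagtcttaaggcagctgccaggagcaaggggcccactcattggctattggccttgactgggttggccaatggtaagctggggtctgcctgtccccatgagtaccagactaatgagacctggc
Cidec: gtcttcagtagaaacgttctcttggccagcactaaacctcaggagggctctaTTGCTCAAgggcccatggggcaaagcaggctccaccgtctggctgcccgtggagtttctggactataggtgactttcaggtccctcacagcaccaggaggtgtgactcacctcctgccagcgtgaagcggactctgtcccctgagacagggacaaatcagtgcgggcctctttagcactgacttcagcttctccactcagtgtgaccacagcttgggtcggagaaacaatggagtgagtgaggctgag
Plin1: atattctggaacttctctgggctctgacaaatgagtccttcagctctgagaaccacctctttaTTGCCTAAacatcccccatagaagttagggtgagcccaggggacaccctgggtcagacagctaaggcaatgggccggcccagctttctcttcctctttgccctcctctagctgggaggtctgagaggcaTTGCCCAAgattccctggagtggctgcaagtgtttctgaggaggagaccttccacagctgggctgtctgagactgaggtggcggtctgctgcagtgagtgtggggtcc
Aqp7: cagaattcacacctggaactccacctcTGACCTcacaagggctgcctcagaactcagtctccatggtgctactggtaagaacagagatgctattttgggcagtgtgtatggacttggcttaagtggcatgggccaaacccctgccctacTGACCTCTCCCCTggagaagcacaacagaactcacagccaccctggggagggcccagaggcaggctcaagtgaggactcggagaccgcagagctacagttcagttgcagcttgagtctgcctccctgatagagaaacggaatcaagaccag
The C/EBP core stood at -198 in Cidec and at -187 and -58 in Plin1, counted to its first printed base from the start. The half-site stood at -223 and -101 in Aqp7, and the match at -101 extended to the direct repeat. Of the 13 genes made up of Adipoq and the 12 genes most like it, 10 had a promoter in the table. The C/EBP core was in 2 of these 10 (Cidec and Plin1), against 12.2% of all gene symbols in the table and 10.8% of its 32851 promoters. The half-site was in 2 of 10 (Aqp7 and Cd36), against 18.1% of symbols and 16.3% of promoters, and the direct repeat in 1 of 10, against 0.248% and 0.204%. The counts of 2 and 1 are of genes, of which some have several promoters. Such a match is a description of these letters and not a site of binding.

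Adipoq itself separated the groups by construction and is given as a description. The log2 level was lowest at 7.43, had a median of 8.21 and was highest at 10.27 in rich tumors, against 4.72, 5.04 and 5.32 in poor tumors. The tumors between ran between 5.33 and 7.35. At the upper limit, the rich tumor nearest to it had a centred level of 0.98 and the nearest tumor below it 0.91. At the lower limit, the nearest poor tumor had -1.12 and the nearest tumor above it -1.11. The limits therefore cut through a continuous range, and no gap set the groups apart from the tumors between.

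The label was checked with 3 further adipocyte markers. Here and below, levels per group are log2 values after the mean difference between the title forms was removed. Plin1, the perilipin that coats the adipocyte droplet, was at 7.54 at the lowest, 8.78 at the median and 10.60 at the highest in rich tumors, against 5.72, 6.21 and 6.60 in poor tumors. Cidec, which fuses lipid droplets, was at 8.66, 9.60 and 11.25 in rich tumors, against 5.89, 6.46 and 6.94 in poor tumors. Fabp4, the fatty acid binding protein of adipocytes, was at 8.84, 9.86 and 11.17 in rich tumors, against 5.43, 6.54 and 8.52 in poor tumors. In each of the 3 markers every rich tumor lay above every poor tumor. The tumors between overlapped with the poor tumors in all 3 markers, and 43 of 61 exceeded every poor tumor in Plin1, 44 in Cidec and 13 in Fabp4.

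**Figure D1:**
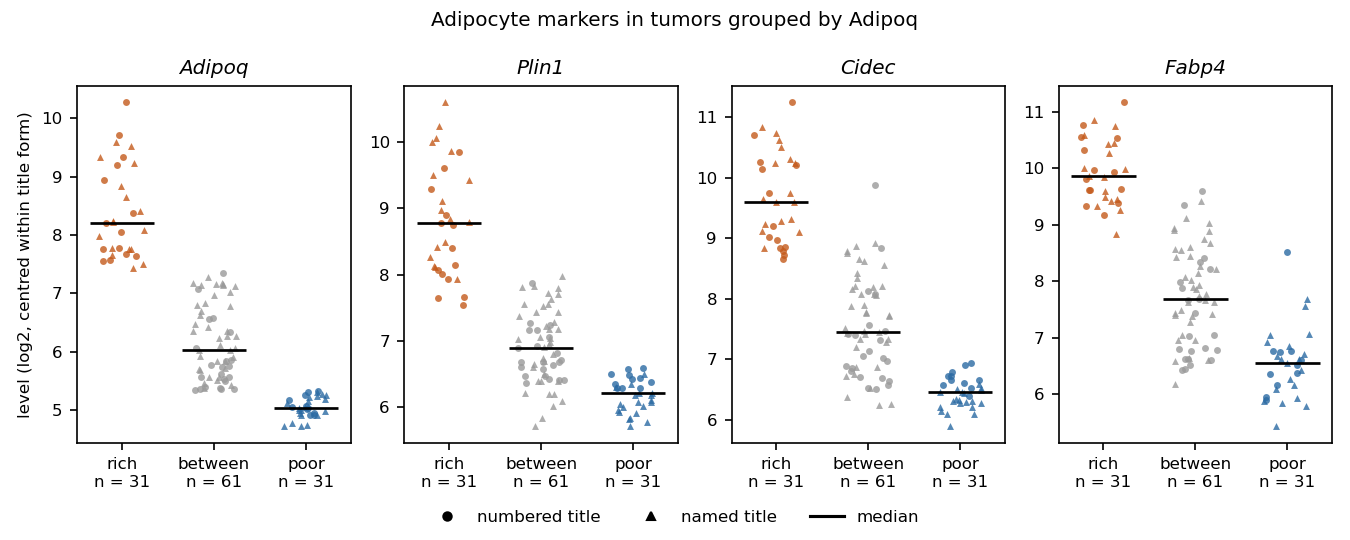
Log2 level (vertical axis, centred within title form) of 4 adipocyte markers in each tumor of the rich, between and poor groups. Circles are numbered titles, triangles named titles and lines medians; Adipoq defined the groups, and the other 3 markers did not overlap between rich and poor tumors.

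Across all 19937 other genes, 1259 were higher in rich tumors (6.31% of those tested) and 737 were lower (3.70%), or 10.0% in either direction. The differences were uneven in size. Of the higher genes 110 differed by over 1 log2 unit, and of the lower genes 6 did. The median difference was 0.35 among the higher genes, -0.18 among the lower genes and -0.01 over all genes. The mean of the tumors between lay between the means of both groups for 1187 of the 1259 higher and 694 of the 737 lower genes. Both title forms gave the same sign for 1994 of the 1996 genes called. The difference did not depend on the title form for any gene after adjustment (limma, 0 genes; 681 at an unadjusted p under 0.05). Array medians were 0.02 log2 units higher in rich tumors (permutation test within title form, 2-sided, p = 0.046), and the part of this shift in the differences was not tested beyond a fit with the array median as a covariate, which called 1148 genes higher and 571 lower.

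The 15 largest increases were led by genes of adipocyte metabolism and secretion. Car3, a cytosolic carbonic anhydrase abundant in adipocytes and muscle, had a lowest level of 11.31, a median of 12.11 and a highest level of 13.05 in rich tumors, against 4.86, 6.42 and 9.53 in poor tumors. Its difference of 5.41 (SE 0.23, adjusted p = 5.3e-29) corresponded to 42.4-fold and was the largest of all genes tested. Cd36, a fatty acid translocase, differed by 3.92 (SE 0.18) or 15.1-fold, and Retn, which encodes resistin, by 3.90 (SE 0.15, adjusted p = 2.0e-31) or 14.9-fold. Cyp2e1, a cytochrome P450 enzyme, was 3.66 higher, Fabp4 3.39, Cidec 3.24 and Pck1, the phosphoenolpyruvate carboxykinase that feeds glycerol synthesis in fat, 3.00. Lpl, lipoprotein lipase, was 2.92 higher, Plin1 2.64, Aqp7, the glycerol channel of adipocytes, 2.61, and Pdk4, a kinase that restrains pyruvate oxidation, 2.56.

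Not all of the 15 are adipocyte genes. Retnla, a secreted resistin-like protein also made by alternatively activated macrophages, was 3.12 higher (SE 0.28), with levels of 5.30, 8.21 and 10.29 in rich tumors, against 3.56, 4.43 and 7.75 in poor tumors. Dpt and Efemp1, which encode the matrix proteins dermatopontin and fibulin 3, were 2.83 and 2.37 higher. Tmem45b, a membrane protein gene, was 2.19 higher. For these 4 genes the groups overlapped, and 22 (Retnla), 27 (Dpt), 24 (Efemp1) and 29 (Tmem45b) of 31 rich tumors exceeded every poor tumor.

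Complete separation was rare. In 21 genes (0.105% of those tested) every rich tumor lay above every poor tumor, and in 0 genes (0%) every rich tumor lay below every poor tumor. The 21 genes were Aoc3, Aqp7, Art3, Car3, Car4, Cd36, Cidec, Cyp2e1, Fabp4, Gys2, Mrap, Nnmt, Pck1, Plin1, Plin4, Rbp4, Retn, Slc36a2, Sncg, Trarg1 and Tshr. Some of them had small differences. Mrap, the accessory protein of melanocortin receptors, was at 6.01, 6.54 and 7.73 in rich tumors, against 5.48, 5.71 and 5.95 in poor tumors, and Tshr, the thyrotropin receptor, was at 4.36, 5.11 and 6.60 in rich tumors, against 3.82, 4.10 and 4.35 in poor tumors. Gys2, the glycogen synthase of liver, which fat also expresses, was at 4.38, 5.04 and 7.57 in rich tumors, against 3.99, 4.17 and 4.38 in poor tumors.

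The 12 genes whose level followed Adipoq most closely over all tumors kept (31 rich, 61 between and 31 poor) were Cidec (Pearson's r = 0.975), Retn (0.966), Plin1 (0.953), Fabp4 (0.952), Plin4 (0.950), Pck1 (0.945), Aqp7 (0.938), Cd36 (0.936), Cyp2e1 (0.912), Trarg1 (0.909), Aoc3 (0.908) and Sncg (0.907). These values describe levels read on the same arrays. Array quality and the amount of fat may enter both levels, and their part was not tested. Plin4 is a further perilipin, Trarg1 regulates the traffic of the glucose transporter GLUT4, Aoc3 is an amine oxidase of adipocytes and vessels, and Sncg encodes γ-synuclein. Car3, the largest difference, was not among these 12.

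Genes of adipocytes were then examined by role. The 8 lists held 89 genes, of which 84 were measured. Of these, 50 (59.5%) were higher in rich tumors and 1 was lower, against 6.31% and 3.70% of all genes, while 33 did not pass the threshold. Their median difference was 0.38. In 49 of the 50 higher genes both title forms gave the same sign, the exception being Dgat1. The tumors between lay between both groups for 37 of the 50. Genes of fatty acid and triglyceride synthesis were among those for which they did not, such as Elovl6, with means of 10.1 in rich tumors, 9.78 in the tumors between and 9.8 in poor tumors.

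**Figure D2:**
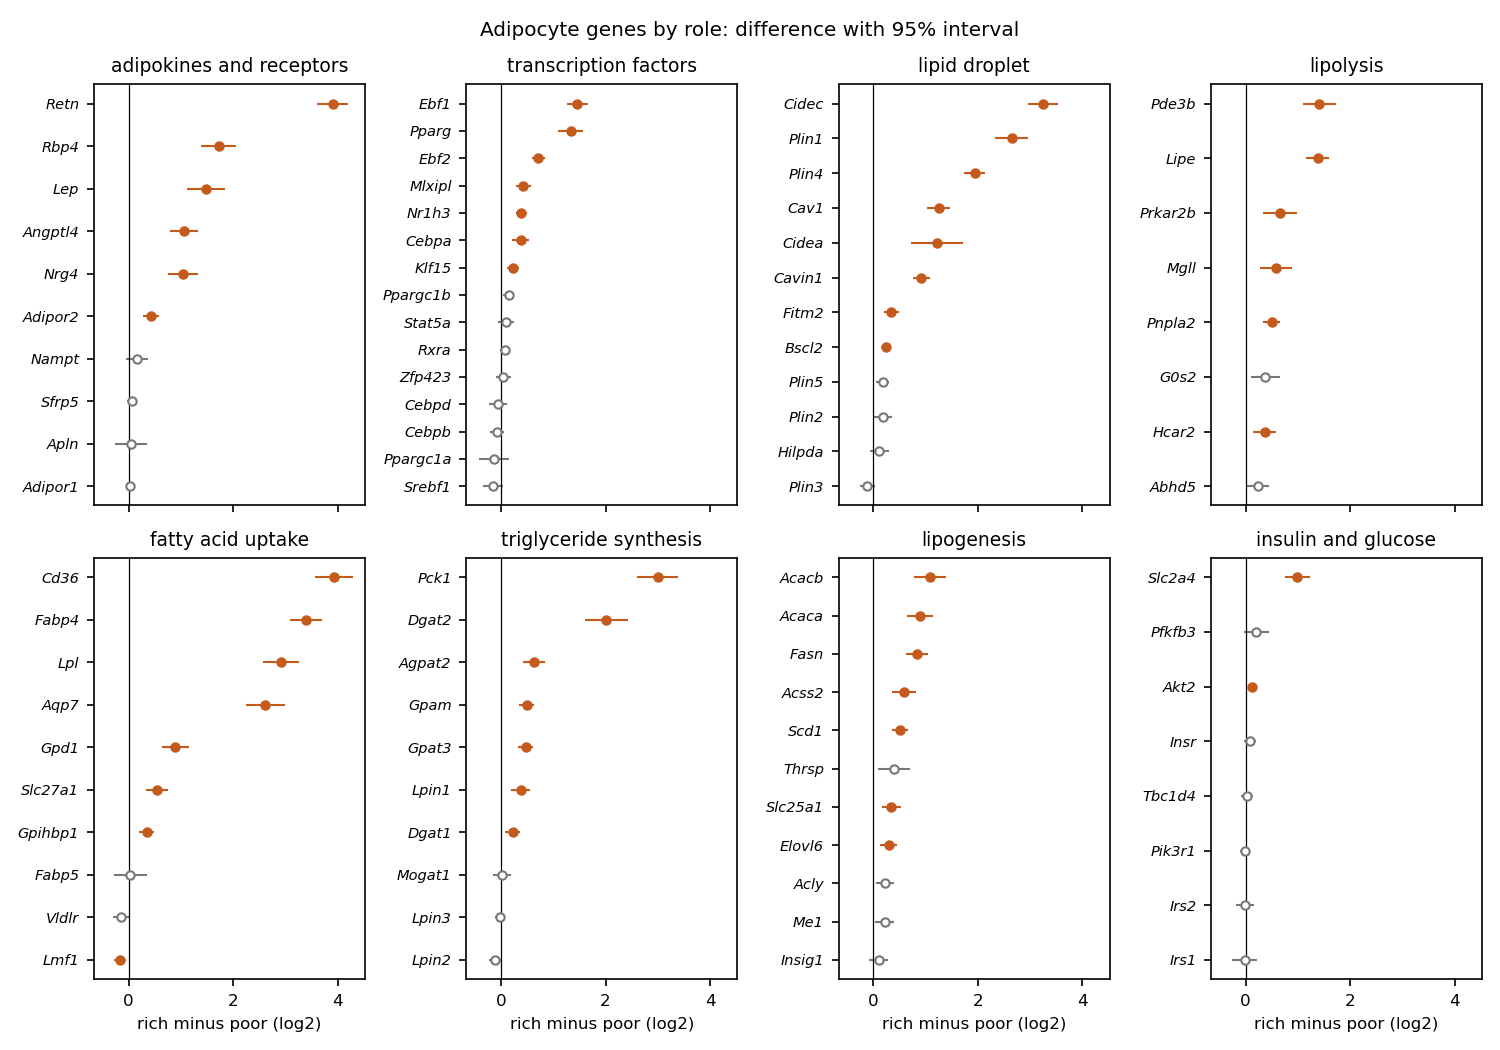
Difference between rich and poor tumors (log2, horizontal axis; bars are 95% intervals, n = 31 each) for 84 adipocyte genes in 8 groups by role. Filled points passed an adjusted p of 0.05 and open points did not; Retn, Cidec, Cd36, Fabp4 and Pck1 lay far to the right of their groups and the perilipins Plin2 and Plin3 lay at 0.18 and -0.11.

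Of the adipokines and their receptors, 6 of 10 were higher and 0 lower (median 0.74), and Cfd was not measured. Lep, which encodes leptin, was at 4.97, 5.97 and 9.05 in rich tumors, against 4.41, 4.74 and 5.11 in poor tumors, with a difference of 1.47 (SE 0.18, adjusted p = 2.9e-09). Leptin thus overlapped between the groups, with 28 of 31 rich tumors above every poor tumor, and spread widely among rich tumors. Rbp4, the retinol carrier, was 1.72 higher, Angptl4, an inhibitor of lipoprotein lipase, 1.06, and Nrg4, a growth factor of brown fat, 1.04. Of the adiponectin receptors, Adipor2 was 0.43 higher, whereas Adipor1 had a difference of 0.03 (95% interval -0.02 to 0.08; adjusted p = 0.58). Apln, Nampt and Sfrp5 did not pass the threshold.

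Of the transcription factors of adipogenesis, 7 of 15 were higher and 0 lower (median 0.15). Pparg, the master regulator, was at 6.96, 7.55 and 9.66 in rich tumors, against 6.08, 6.45 and 7.02 in poor tumors, a difference of 1.34 (SE 0.12). Ebf1 and Ebf2, which act early in adipocyte commitment, were 1.46 and 0.72 higher. Cebpa was 0.38 higher, Nr1h3, which encodes a liver X receptor, 0.39, Mlxipl, a factor that answers to carbohydrate, 0.43, and Klf15 0.23. Cebpb and Cebpd, which precede Cebpa in differentiation, had differences of -0.07 and -0.06 and did not pass, and neither did Srebf1 (-0.16) or Ppargc1a (-0.13).

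Proteins of the lipid droplet differed by member. Of 12 genes, 8 were higher and 0 lower (median 0.63). Next to Cidec and Plin1, Plin4 was at 7.25, 8.02 and 9.25 in rich tumors, against 5.54, 6.14 and 6.55 in poor tumors. Cav1 and Cavin1, which build the caveolae of adipocytes and endothelium, were 1.25 and 0.92 higher. Cidea, a droplet protein of brown fat and of the lactating gland, was 1.23 higher. Plin2, which coats droplets in most cell types and in milk secretion, had 0.18 (adjusted p = 0.21), and Plin3 had -0.11 (adjusted p = 0.38). The perilipins expressed mainly in adipocytes rose, whereas the 2 widespread ones did not pass the threshold; the difference between them was not tested.

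Enzymes that release fat were higher in 6 of 8 genes and lower in 0 (median 0.54). Lipe, hormone-sensitive lipase, was at 8.14, 8.82 and 10.08 in rich tumors, against 7.04, 7.51 and 8.36 in poor tumors, a difference of 1.38 (SE 0.11). Pde3b, the phosphodiesterase through which insulin restrains lipolysis, was 1.41 higher, Mgll, which cleaves monoglycerides, 0.58, and Pnpla2, adipose triglyceride lipase, 0.50. Abhd5 and G0s2, an activator and an inhibitor of that lipase, had 0.23 and 0.38 and did not pass.

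Uptake of fatty acids and glycerol gave 7 of 10 genes higher and 1 lower (median 0.72). Lpl was at 8.64, 9.38 and 11.20 in rich tumors, against 5.68, 6.67 and 8.67 in poor tumors, and 30 of 31 rich tumors exceeded every poor tumor. Gpd1, which makes glycerol phosphate, was 0.90 higher, Slc27a1, a fatty acid transporter, 0.54, and Gpihbp1, which holds lipoprotein lipase on capillaries, 0.34. Lmf1, which matures lipoprotein lipase, was the 1 gene lower, with a difference of -0.16 (adjusted p = 0.042), a call that was lost in 12 of the 17 other settings. Fabp5, the fatty acid binding protein of epithelium and macrophages, had 0.03 (adjusted p = 0.95).

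Synthesis of triglycerides gave 7 of 10 genes higher and 0 lower (median 0.43). Dgat2, which completes triglycerides, was at 7.46, 9.08 and 11.30 in rich tumors, against 6.43, 7.45 and 9.36 in poor tumors, a difference of 2.02 (SE 0.21). Agpat2 and Gpam, of the preceding steps, were 0.63 and 0.49 higher. Dgat1 was 0.22 higher (adjusted p = 0.042), but its difference was -0.054 in numbered and 0.41 in named tumors.

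Fatty acid synthesis, which mammary epithelium carries out as well, gave 7 of 11 genes higher and 0 lower (median 0.39). Fasn, fatty acid synthase, was at 10.38, 11.28 and 12.31 in rich tumors, against 10.02, 10.42 and 11.38 in poor tumors, a difference of 0.83 (SE 0.11) or 1.78-fold. The groups overlapped broadly and 15 of 31 rich tumors exceeded every poor tumor. Acaca and Acacb, the acetyl-CoA carboxylases, were 0.89 and 1.09 higher, and Scd1, the stearoyl-CoA desaturase, 0.51. Acly and Me1, which supply acetyl-CoA and NADPH, had 0.22 each and did not pass. Without the rich tumors whose Ucp1 exceeded every poor tumor, described below, 2 of 11 were higher.

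In the pathway of insulin and glucose, 2 of 8 genes were higher and 0 lower (median 0.05). Slc2a4, which encodes the insulin-regulated transporter GLUT4, was at 7.04, 7.54 and 9.22 in rich tumors, against 6.18, 6.74 and 7.40 in poor tumors, a difference of 0.99 (SE 0.12). Akt2 was 0.12 higher. The receptor Insr (0.08) and its substrates Irs1 (-0.02) and Irs2 (-0.02) did not pass the threshold.

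Brown fat genes varied widely among the rich tumors. Ucp1 was at 5.03, 6.40 and 11.66 in rich tumors, against 5.03, 5.20 and 5.50 in poor tumors. It exceeded every poor tumor in 21 of 31 rich tumors and in 8 of the 61 tumors between, and it lay within or below the range of poor tumors in the other 10 rich tumors. Some of the 21 lay just above the poor tumors, such as animal 14262 at 5.51, so the split cuts a continuous range. Cox8b, a cytochrome c oxidase subunit of brown fat and muscle, was at 6.13, 8.37 and 11.03 in rich tumors, against 5.28, 6.33 and 9.81 in poor tumors. Of the 9 brown fat genes measured, 6 were higher and 0 lower (median 0.48), among them Elovl3 (1.06), Dio2 (0.48), which activates thyroid hormone, and Kcnk3 (0.29). Prdm16 (0.11) and Zic1, factors of brown adipocyte identity, did not pass. Of the 9, 1 was called in numbered tumors alone and 5 in named tumors alone.

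Plin1 and Retn were above every poor tumor in these 21 rich tumors and in the other 10. Plin1 was at 7.65, 8.98 and 10.60 in the 21 and at 7.54, 8.21 and 9.50 in the 10, against 5.72, 6.21 and 6.60 in poor tumors. Retn was at 8.46, 10.05 and 11.33 in the 21 and at 8.85, 9.31 and 10.40 in the 10, against 5.34, 5.84 and 6.69 in poor tumors. With the 10 tumors alone set against the 31 poor tumors, 683 genes were higher (3.43% of those tested) and 0.592% were lower, all 15 of the largest increases stayed past the threshold, and 0 of 9 brown fat genes did (limma; 3 at an unadjusted p under 0.05). Fewer genes of the adipocyte lists were called with these 10 tumors, with 5 of 12 for the lipid droplet (median 0.28), 2 of 8 for lipolysis (0.37), 5 of 10 for uptake (0.39), 4 of 10 for triglyceride synthesis (0.23) and 4 of 15 for the transcription factors (0.09). Cidea had a median of 6.60 in the 10, against 6.53 in poor tumors. Adipoq had a median of 7.92 in the 10 and 8.41 in the 21, so the 10 also had less of the marker that chose the groups. These 10 tumors were picked for their low Ucp1 level, so the count of 0 of 9 brown fat genes is partly set by the choice and is a description.

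**Figure D3:**
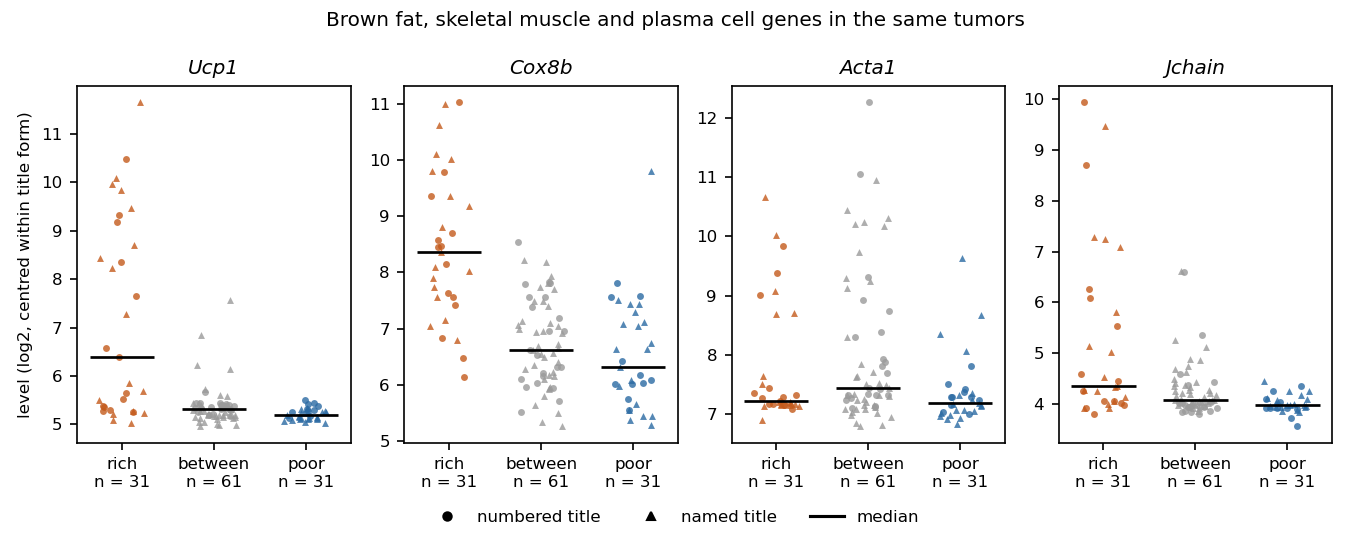
Log2 level (vertical axis, centred within title form) of Ucp1, Cox8b, Acta1 and Jchain in each rich, between and poor tumor; circles are numbered titles, triangles named titles and lines medians. Ucp1 spread between 5.03 and 11.66 in rich tumors, Acta1 was high in some tumors of every group, and Jchain was highest in part of the rich tumors.

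Other tissue was measured beside the fat. Skeletal muscle lies next to the mammary fat pad, and 0 of its 10 genes passed the threshold (limma; median 0.36; 7 at an unadjusted p under 0.05). Acta1, skeletal actin, was at 6.91, 7.23 and 10.67 in rich tumors, against 6.84, 7.19 and 9.64 in poor tumors, and Ckm, muscle creatine kinase, exceeded every poor tumor in 5 rich tumors. The mean level of the muscle list was 5.68 at the lowest, 5.95 at the median and 9.36 at the highest in rich tumors, against 5.66, 5.88 and 7.66 in poor tumors. Some tumors of both groups thus held muscle RNA, and Acta1 exceeded every poor tumor in 3 of 31 rich tumors. It also did so in 9 of the 61 tumors between. There Acta1 reached 12.26 and Ckm 11.20, above the highest rich tumors (10.67 and 10.40). Without the tumors of high Acta1 (28 rich against 30 poor), 1159 genes were higher and 538 lower. Rich tumors with Acta1 as high as 9.38 (animal 14103) stayed in that fit, so it did not remove all muscle RNA.

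Stromal genes were higher in rich tumors. The counts of this and every other list stand against 6.31% of all genes higher and 3.70% lower. In lists this short, a single gene called is a result for that gene and not for its cell type. All 12 genes of the fibroblast matrix were higher (median 0.54), led by Dcn (1.45, SE 0.23) and Lum (1.29), small proteoglycans, and Col3a1 (0.91). Dcn was at 10.83, 11.37 and 11.98 in rich tumors, against 6.07, 10.32 and 11.41 in poor tumors, so that it was more variable in poor tumors. The mean level of the list was 9.13, 9.56 and 10.25 in rich tumors, against 7.62, 9.00 and 9.74 in poor tumors. Of 8 genes of adipocyte progenitors and mesenchyme, 6 were higher and 0 lower (median 0.65), including Cd34 (0.88), Pi16 (0.87), Pdgfra (0.67), Col15a1 (0.67) and Fgf10 (0.64). The number of matrix genes called was 4 of 12 in the numbered and 7 of 12 in the named tumors alone. With the mean of the fibroblast list as a covariate, all 15 of the largest increases stayed past the threshold. Of the 8 genes of progenitors and mesenchyme, 4 were higher in that fit (median 0.28).

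Vessels were higher as well, in 9 of 10 endothelial genes (0 lower, median 0.43). Tek, an angiopoietin receptor, was at 6.62, 7.34 and 8.26 in rich tumors, against 5.43, 6.54 and 7.26 in poor tumors, a difference of 0.83 (SE 0.10). Cldn5 was 0.69 higher and Pecam1 0.57. With the fibroblast list as a covariate, 8 of the 10 were still called. Of 6 lymphatic genes, Lyve1 (1.28), Mmrn1 (0.57) and Reln (0.27) were higher, whereas Prox1 (0.04) and Flt4 (0.02), which define lymphatic endothelium, did not pass. With the same covariate, 1 of the 6 was higher. Of 8 genes of pericytes and smooth muscle, 4 were higher and 0 lower (median 0.24). Of 5 genes of Schwann cells, Pmp22 (0.86), a myelin gene that fibroblasts also express, was higher and 0 were lower (median 0.06).

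Among immune cells, macrophage genes differed most often, with 9 of 10 higher and 0 lower (median 0.48). Mrc1 and Cd163, scavenger receptors of resident macrophages, were 1.23 (SE 0.14) and 1.21 (SE 0.14) higher. Mrc1 was at 7.40, 8.04 and 8.86 in rich tumors, against 5.39, 6.89 and 8.11 in poor tumors. Lyz2 was 0.82 higher, while Cd68 had 0.25 (adjusted p = 0.053). Of the 10, 5 were called in numbered and 6 in named tumors alone, and 4 with the fibroblast list as a covariate (median 0.29). Of 6 genes of lipid-associated macrophages, Lpl, also an adipocyte gene, was higher, Lgals3 was lower (-0.33, a call lost in 11 of the 17 other settings), and Trem2 (0.15) did not pass.

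Of 7 mast cell genes, 4 were higher and 0 lower (median 0.16), with Cpa3 (0.91) and Mcpt4 (0.60), which encode granule proteases, ahead of Kit (-0.16, not past). In T and NK cells 6 of 11 genes were higher and 0 lower (median 0.26), among them Cd3g (0.61). With limma, 0 of the 11 were called within numbered tumors alone (7 at an unadjusted p under 0.05), 0 within named tumors alone (8 unadjusted) and 0 with the fibroblast list as a covariate (6 unadjusted). Jchain, the joining chain of secreted IgA and IgM, was the 1 gene called of 9 for B and plasma cells. It was at 3.80, 4.36 and 9.95 in rich tumors, against 3.56, 3.98 and 4.44 in poor tumors, a difference of 1.23 (SE 0.31, adjusted p = 0.0037). Its level exceeded every poor tumor in 14 of 31 rich tumors, in some of them narrowly, such as animal 13958 at 4.52. It also did so in 12 of the 61 tumors between, where it reached 6.62. Of 9 neutrophil genes 0 passed (limma; 1 at an unadjusted p under 0.05).

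Genes of the tumor epithelium passed the threshold about as often as genes at large (10.0% in either direction) or less. Krt8, a keratin of luminal epithelium, had a median of 12.16 in rich tumors and 12.17 in poor tumors, and its difference of -0.02 had a 95% interval of -0.15 to 0.10. Of 10 luminal genes 1 was higher, the estrogen receptor gene Esr1 (0.34, adjusted p = 0.043; lost in 6 of the 17 other settings), and 0 were lower (median -0.05). With limma, 0 of 8 myoepithelial genes, 0 of 6 keratinocyte genes and 0 of 8 milk genes passed, and at an unadjusted p under 0.05 these counts were 0, 0 and 2. Csn2, β-casein, had a median of 10.69 in rich tumors and 8.81 in poor tumors, yet ranged between 5.56 and 12.59 in rich tumors and between 5.46 and 12.50 in poor tumors (difference 1.19, adjusted p = 0.17). Of 19 proliferation genes 0 passed (limma; 0 at an unadjusted p under 0.05; median -0.02), and of 9 interferon-induced genes 0 passed (0 unadjusted; median 0.12). For Mki67, the difference was 0.01 with a 95% interval of -0.17 to 0.19.

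**Figure D4:**
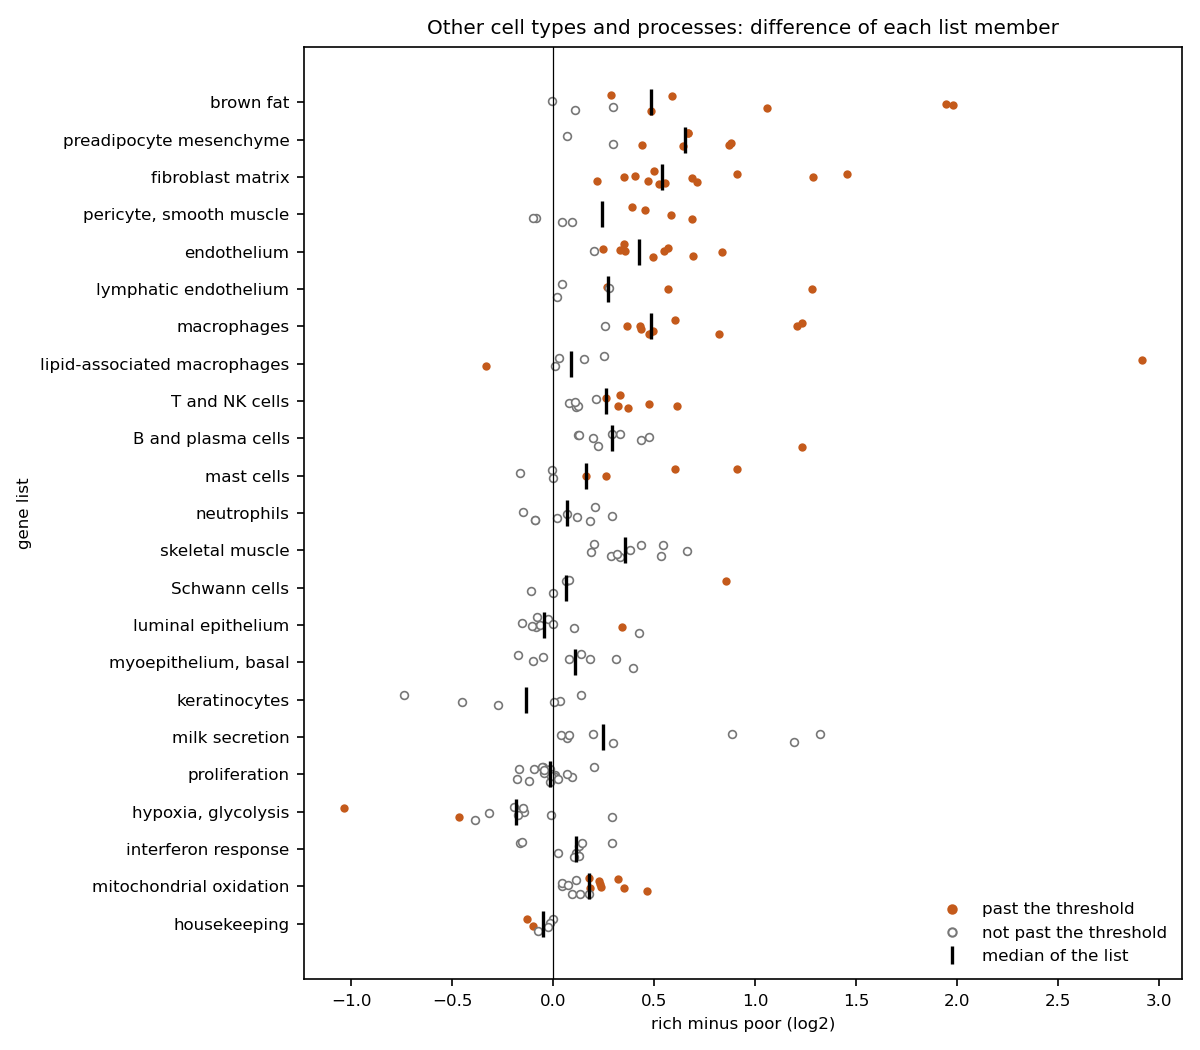
Difference between rich and poor tumors (log2, horizontal axis) for each measured gene of 23 lists of other cell types and processes (vertical axis). Filled points passed an adjusted p of 0.05, open points did not, and bars mark list medians; matrix, endothelial and macrophage genes lay to the right of 0, whereas proliferation and luminal genes clustered around it.

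Oxidative genes were modestly higher in 8 of 15 (0 lower, median 0.18), such as Hadhb (0.46), of fatty acid oxidation, and Cpt2 (0.35), which readies fatty acids for it. In the numbered tumors alone and without the rich tumors whose Ucp1 exceeded every poor tumor, 0 of 15 were called (limma, with 4 and 0 at an unadjusted p under 0.05). Of 6 housekeeping genes, Tbp (-0.13, lost in 8 of the 17 other settings) and Ywhaz (-0.10) were lower and Actb did not pass.

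Decreases were fewer and smaller than increases. Car9, a membrane carbonic anhydrase induced by hypoxia, was at 6.08, 7.38 and 8.56 in rich tumors, against 6.30, 8.42 and 10.00 in poor tumors. It fell by 1.04 (SE 0.19, adjusted p = 4.9e-05), and 28 of 31 rich tumors lay below the median of poor tumors. Of 10 genes of hypoxia and glycolysis, Egln3, an oxygen-sensing hydroxylase, fell as well (-0.47), 0 were higher and 8, such as Vegfa (-0.39) and Slc2a1 (-0.14), did not pass (median -0.19). Egln3 lost its call in 4 of the 17 other settings and Car9 in 1. With only the 13 highest and the 13 lowest tumors, 1 of the 10 was higher and 0 were lower (limma; 3 at an unadjusted p under 0.05). The median of the list was 0.03 with the fibroblast list as a covariate.

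The other decreases among the 15 largest were of varied function. The largest was that of Chad, the matrix protein chondroadherin, at -1.15 (SE 0.31, adjusted p = 0.0094), with levels of 5.70, 7.27 and 9.65 in rich tumors, against 6.24, 8.60 and 10.45 in poor tumors. Bpifb5 (-1.07), Fbp1, a gluconeogenic phosphatase (-1.06), Cpm, a membrane carboxypeptidase (-1.05), the T-box factor Tbx15 (-1.03), the protease inhibitor A2m (-0.995) and the homeobox factor Meis1 (-0.99) followed. Further genes were the amino acid transporter Slc6a15 (-0.92), the keratin Krt23 (-0.89), Ddah1 (-0.78), which breaks down methylated arginine, the vesicle protein Vamp1 (-0.75), the channel subunit Kcne3 (-0.72), Igfbp3, which binds insulin-like growth factors (-0.70), and Stxbp4 (-0.61). The most even was Igfbp3, with 30 of 31 rich tumors below the median of poor tumors. Calls were lost in 11 of the 17 other settings for Meis1, in 10 for Bpifb5 and in 8 for Fbp1. They were lost in 6 each for Tbx15, A2m and Slc6a15. The other genes of the 15 lost theirs in fewer, down to 1 for Car9 and Igfbp3.

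The increases held in each title form by its own test more often than the decreases. Numbered tumors alone (14 rich, 11 poor) gave 671 genes higher and 208 lower, and named tumors alone (17 rich, 20 poor) gave 665 higher and 91 lower. Both tests together called 422 higher and 13 lower. All 15 of the largest increases were called in both, whereas 5 of the 15 largest decreases were called in numbered and 4 in named tumors. Car3 differed by 5.42 in numbered and 5.40 in named tumors, whereas Plin1 differed by 2.05 and 3.04 and Kcne3 by -0.09 and -1.15.

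**Figure D5:**
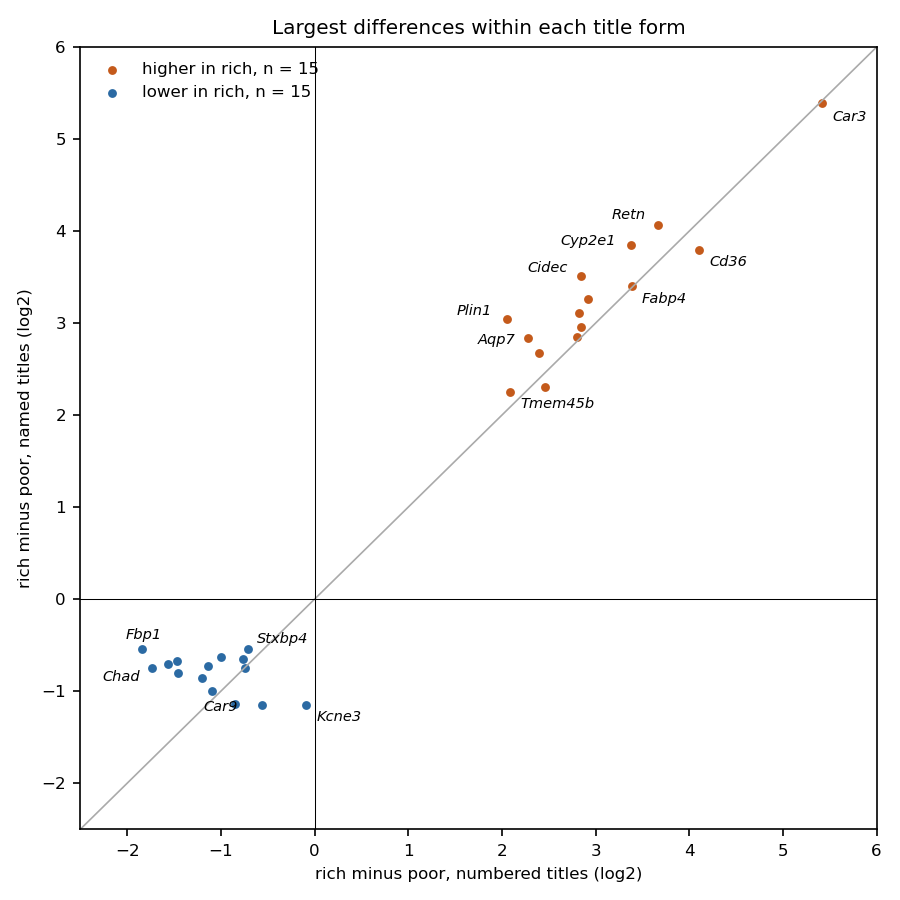
Difference between rich and poor tumors (log2) within numbered titles (horizontal axis, 14 rich and 11 poor) and within named titles (vertical axis, 17 rich and 20 poor) for the 15 largest increases and 15 largest decreases. The line marks equal differences; Car3 lay on it at 5.42 and 5.40, and Plin1 (2.05 and 3.04) and Kcne3 (-0.09 and -1.15) lay away from it.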

How the data were processed

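Total RNA of mammary tumors was measured on Affymetrix Mouse Gene 1.0 ST arrays, 1 color. The deposited values are log2 levels that the authors made with RMA, per the submitters' processing notes, a method that corrects background, normalizes and summarises the probes of each probeset. The distributions of the deposited arrays were not alike, as their medians ran between 5.36 and 5.58 with the suffix r. In the other arrays, they ran between 5.87 and 6.36 with named titles (median 5.95) and between 6.12 and 6.29 with numbered titles (median 6.18). RMA's version was not found, and the genome build is not given in the sources used here. Of 35556 probesets, 21789 had 1 gene symbol in the platform annotation, 1621 several and 12146 none. Probesets with 1 symbol gave 19938 genes. For 999 genes with several, the probeset of highest mean was used, and Adipoq had 1 probeset. Values ran between 1.89 and 14.0. Arrays have no depth, and their number limits the precision.

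Rich minus poor was fitted by limma 3.58.1 (R 4.3.3; lmFit and eBayes with a mean trend) with title form as covariate, 2-sided, with Benjamini-Hochberg adjustment over 19937 genes and a threshold of 0.05. Adipoq was not tested. Folds are 2 to the power of the difference. The fit was tested on simulated data with known changes. The genes named were, in either direction, the 15 that differed most among those past the threshold, without clone or predicted names, and members of the lists may be named too. Members and lists were chosen with earlier results of these data known. Likeness to Adipoq was Pearson's r of levels centred within title form. Alternatives were other group sizes, groupings, normalizations, covariates, filters and variance models, and 3 were chosen after seeing the data (leaving out rich tumors by Ucp1, leaving out tumors of high Acta1, and the mean of the fibroblast list as covariate).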

Additional observations from a re-analysis of the deposited data

How the results depend on the processing

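The share of genes higher in rich tumors (6.31%) moved by over 1.5 times in 5 alternatives. It was 3.68% with only the 13 highest and the 13 lowest tumors, 3.37% in numbered and 3.34% in named tumors alone, and, in settings chosen after seeing the data, 3.43% without the 21 rich tumors whose Ucp1 exceeded every poor tumor and 2.85% with the fibroblast list as covariate. The share of genes lower (3.70%) was 0.697% with 13 tumors each, 1.04% in numbered and 0.456% in named tumors, 0.592% without those 21 tumors, 5.74% with array weights and 6.64% among genes of mean level of at least 6, a filter that removed dim genes (12047 tested). Settings with fewer tumors have less power. Groups by Plin1 shared 28 rich and 23 poor tumors with those by Adipoq and called 1173 genes higher and 696 lower. Quantile normalization of all arrays called 1292 higher and 581 lower.

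The difference depended on the title form in 0 genes with the design reported, and in 1 gene each with a slope on Adipoq over all tumors (Plin1, numbered minus named -0.95, adjusted p = 5.5e-07) and without the 21 tumors (Inmt, -1.34, adjusted p = 8.0e-05). Dgat1 turned in sign in numbered tumors (-0.054), and the cause was not tested. Col1a1 did so with the fibroblast covariate (-0.43), which is the mean of a list that holds Col1a1 and so balances its members around 0 by construction. The 15 largest increases kept their call wherever they were tested. Of the 15 largest decreases, 11 lost it in named tumors alone, 10 in numbered tumors alone and 11 with 13 tumors each. No paired analysis was possible because the rich and poor tumors are different animals of 1 labelled group.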

Other observations

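The 10 arrays left out by the rule had raw Adipoq levels between 4.50 and 7.57. All were below the median of the rich tumors (8.21), but the highest lay within the range of the rich tumors, which began at 7.43. Of the 4 animals left out by number, 14094 and 14095 had raw log2 levels of 7.57 and 7.32, with Cidec at 9.26 and 9.03, and 14312 and 14320 had 6.06 and 6.03, with Cidec at 6.81 and 8.09. The 6 arrays with the suffix r had array medians between 5.36 and 5.58, and their Adipoq levels ran between 4.50 and 7.44. These medians are below those of all other arrays, so their raw levels are not on the same scale. Those of animals 14018 and 14022 were at 7.44 and 7.15, with Fabp4 at 9.44 and 9.33, and those of animals 14253 and 14050 were at 4.50 and 4.98, with Fabp4 at 5.69 and 6.26.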
